A study of Rattus norvegicus with 8 samples.

Results

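Short-chain fatty acids, chiefly acetate, propionate and butyrate, are what colonic bacteria release when they ferment dietary fiber. The genes described here are 8 that carry these acids into cells, sense them, or burn butyrate and pass it on as ketone bodies: the transporters Slc16a1, Slc16a3 and Slc5a8, the receptors Ffar2 and Ffar3, the enzymes Acsm3 and Acads, and the ketone body enzyme Bdh1. They were chosen by name for their function, with earlier results of these data known. All 8 were matched to a probe, 1 probe each, and they stand among 19899 genes tested in all. The colon tissue came from 16 female Wistar rats aged 6 weeks, 4 per diet, fed these diets from weaning. They were a reference diet (REF) and versions of it with cocoa powder (C10), cocoa fiber powder (CF) or inulin (I). The versions were adjusted to keep the proportions of macronutrients and insoluble fiber of REF. C10 and CF supplied the same cocoa fiber, and CF had little of the cocoa polyphenols. Inulin, a readily fermented plant fructan, matched C10 in soluble fiber. REF was thus not free of fiber, and C10 also brought cocoa polyphenols. C10, CF and I are called the fiber diets below. The comparison asks whether diets with added fermentable fiber moved the colon's own machinery for taking up, sensing and using these acids. C10 against REF does not isolate fiber.

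Colonocytes take up butyrate in the lumen by a proton-coupled monocarboxylate transporter, encoded by Slc16a1, and by a sodium-coupled one, encoded by Slc5a8. Inside the cell butyrate is joined to coenzyme A and oxidised in the mitochondria, which is the main fuel of these cells, and part of the acetyl-CoA can leave as the ketone bodies acetoacetate and 3-hydroxybutyrate. The acids are also signals, read by G protein-coupled receptors on enteroendocrine, epithelial and immune cells.

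Each of 8 two-colour Agilent arrays carried 2 rats, with Cy5 and Cy3, and by the labels every rat was on 1 array and in 1 dye. The study's methods speak of dye swaps for all samples, which the labels do not show, and the labels were followed in counting 4 rats per diet. The first 4 arrays held all C10 rats and the last 4 (arrays 5 to 8) all I rats, and each set held 2 rats of REF and 2 of CF. No array carried C10 beside I, or CF beside REF. Values are normalized log2 signals, in which 1 unit is a 2-fold step, and the number of arrays limits their precision. A piece of whole colon wall was measured, so that fewer cells of a type and less RNA per cell cannot be told apart. The tissue label was borne out by its markers: all 7 epithelial and all 6 surface colonocyte genes looked at, among them Car1 and Slc26a3, were well above background in all 16 rats, and their means spanned 13.96 to 14.89 and 11.82 to 13.26. Some rats stood apart. The mean of 4 posterior Hox genes (Hoxb13, Hoxd13, Hoxd12 and Hoxd10), which in the gut are most active towards the rectum, ran from 6.68 (REF rat 4) to 10.51 (C10 rat 4), with 6.68 to 9.17 in REF, 8.93 to 10.51 in C10, 7.73 to 9.55 in CF and 7.91 to 9.01 in I. The smooth muscle mean was 12.79 in C10 rat 1 and reached 15.48 in REF rat 1. The B cell mean ran from 7.99 to 11.31 on the odd-numbered arrays and from 6.34 to 7.02 on the even-numbered ones, and each kind held 2 rats of every diet. Between odd and even arrays 1.25 % of all genes differed at an adjusted p below 0.05, and 0 of the 8 genes did (smallest adjusted p = 0.615). The mast cell mean was 7.78 to 8.65 in C10 and 9.19 to 9.99 in the other diets. The erythrocyte mean was 11.62 to 11.90 in REF and 12.06 to 13.19 in the other diets. The macrophage mean averaged 8.33 in C10 (7.80 to 8.82), 8.71 in REF (8.56 to 8.88), 8.93 in CF and 8.89 in I, and the enteroendocrine mean 11.32 in C10, 11.62 in REF, 11.25 in CF and 11.49 in I. The adipocyte mean averaged 7.99 in C10, 8.83 in REF, 8.73 in CF and 8.52 in I. The crypt base mean, over 3 genes of which 1 was well above background in all 16 rats, was 7.35 to 7.64 in REF, 6.96 to 7.35 in C10, 7.10 to 7.34 in CF and 7.12 to 7.43 in I, and every C10 and CF rat was below every REF rat, by a narrow margin. The study also reports that its cocoa group ended lighter than the other groups on a similar chow intake. The part of these differences in the values below was not tested except where a value is given.

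None of the 8 genes passed the threshold, a limma adjusted p below 0.05 over all genes, in any of the 7 comparisons of diets or in the test of any difference among the 4 diets. Their smallest adjusted p was 0.187, for Slc16a1 in C10 against REF, and it was 0.171, for Slc5a8, in the test of any difference. Over all 19899 genes, the share past this threshold was 0.945 % for C10 against REF, 0.432 % for C10 against CF, 0.548 % for C10 against I and 0.392 % for any difference. It was 0 % for CF against REF, for I against REF, for CF against I and for the mean of the 3 fiber diets against REF. At an unadjusted p below 0.05, 13 of the 56 values of the 8 genes stood out. These were 2 of 8 genes for C10 against REF, where 17.1 % of all genes did so, 2 for CF against REF (6.39 %), 2 for I against REF (5.71 %), 2 for C10 against CF (13.5 %), 1 for C10 against I (12.2 %), 2 for CF against I (2.83 %) and 2 for the mean of the fiber diets against REF (9.56 %). CF and I had 0 genes past the threshold against REF anywhere on the array, so a count of 0 among the 8 genes there says nothing particular to them.

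Leaving Acsm3 aside, all 49 of the 95 % intervals of the other 7 genes lay within a 2-fold change in either direction. Those of Ffar3 count for little, since its signals lay near the floor, where a 2-fold fall could hardly show. Of the intervals of the other pathway genes described below, 313 of 329 lay within it too. Only 1 of the 56 differences reached 2-fold, that of Acsm3 between C10 and I. The median difference of the 8 genes was -0.11 for C10, -0.09 for CF and 0.07 for I against REF, compared with 0.01 over all genes in each comparison. The plot of differences with their intervals gives all 48 pairwise values.

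**Figure D1:**
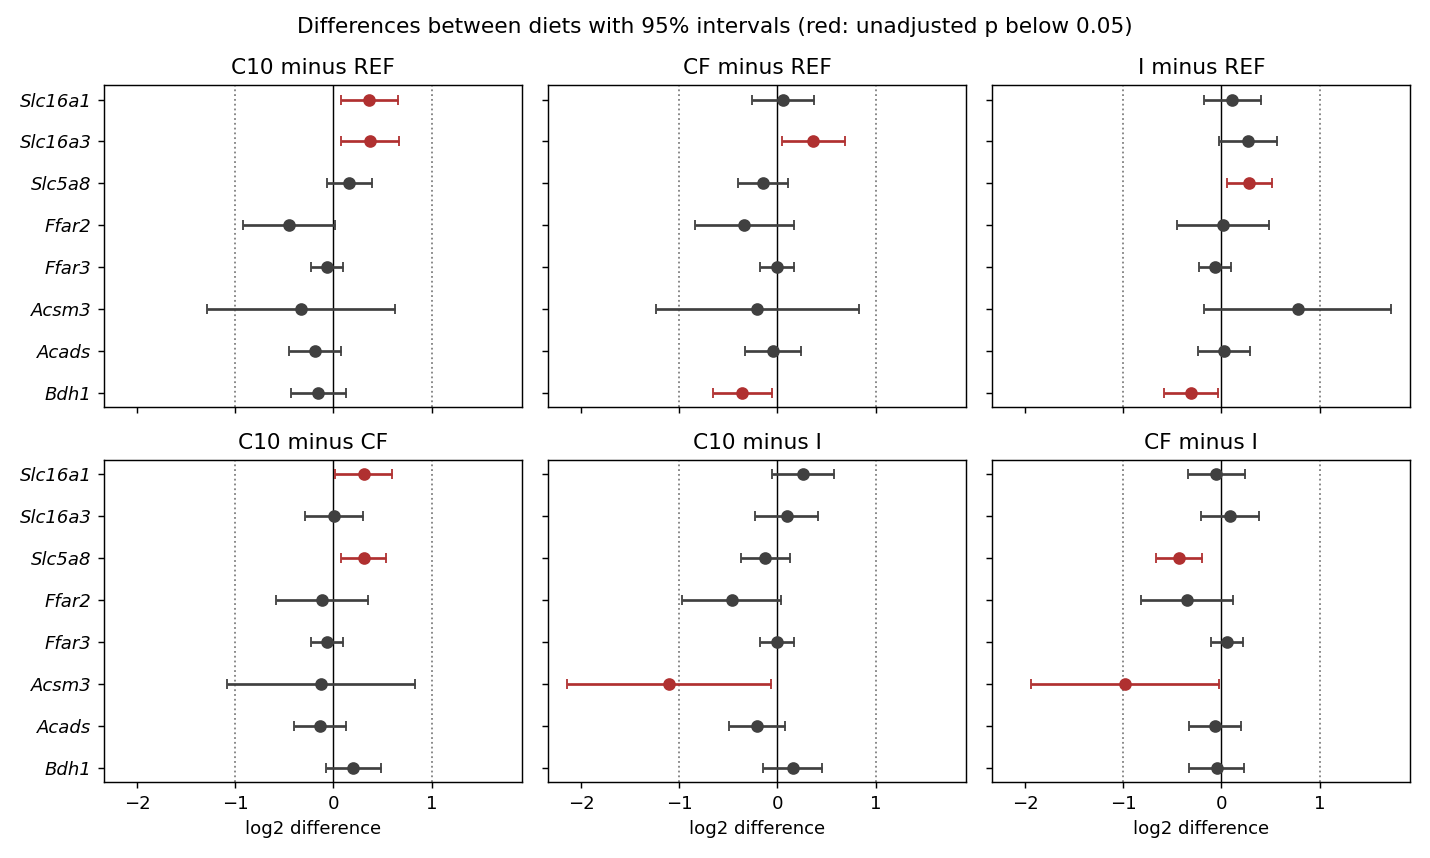
Log2 differences between diets (x axis) for the 8 genes (y axis), 1 panel per pair of diets, from the linear model over 16 rats. Points are estimates, bars 95 % intervals, dotted lines mark 2-fold changes, and red marks an unadjusted p below 0.05; Acsm3 is the gene whose intervals leave the dotted lines.

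Among the transporters, Slc16a1, the monocarboxylate transporter MCT1 that carries butyrate and lactate with a proton, had its highest mean in the cocoa diet. Its signals were 10.61, 10.55, 10.63 and 10.42 in C10 and 10.42, 10.20, 9.96 and 10.06 in REF. They were 10.60, 9.97, 9.78 and 10.22 in CF and 9.77, 10.26, 10.27 and 10.39 in I. The 4 C10 rats were 4 of the 6 highest, the others being CF rat 1 (10.60) and REF rat 1 (10.42), so that C10 overlapped REF and CF. The difference of C10 from REF was 0.37 (SE 0.14, 95 % interval 0.08 to 0.66, adjusted p = 0.187), and that from CF was 0.31 (SE 0.14, 95 % interval 0.02 to 0.60, adjusted p = 0.333). Against I, all 4 C10 rats were higher than all 4 I rats (exact permutation p = 0.0286 two-sided, the smallest that 4 against 4 can give), and 3.35 % of all genes were separated in this way. The limma difference from I was 0.26 (SE 0.15, 95 % interval -0.06 to 0.57, adjusted p = 0.51), and 0.14 without I rat 1, while that from CF was 0.47 without CF rat 1. The remaining diets followed in the order I, REF and CF, with means of 10.17, 10.16 and 10.14 that differed by far less than their SD of 0.20 to 0.35. These means leave out the pairing of rats on arrays. Arrays 7 and 8, which carried I beside REF in opposite dyes, both had the I rat higher. I minus REF was 0.31 on array 7, and REF minus I was -0.32 on array 8. In the model, CF minus REF was 0.06 (SE 0.15, 95 % interval -0.26 to 0.37, adjusted p = 0.973) and I minus REF 0.11 (SE 0.14, 95 % interval -0.18 to 0.40, adjusted p = 0.958). With 1 rat left out at a time, CF minus REF ran from -0.08 (without CF rat 1) to 0.16. In the same way I minus REF ran from 0.02 to 0.21, and it was 0.25 with log-ratios within arrays. Within arrays 1 to 4 alone, where 4 C10 rats met 2 REF rats and 2 CF rats, C10 was 0.24 above REF and 0.27 above CF. C10 and I shared no array, and with a term for the 2 sets of arrays C10 minus I was 0.09.

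Slc16a3 encodes MCT4, a transporter of the same family that mainly lets lactate out of glycolytic cells. It had its lowest mean and narrowest range in REF, at 11.25, 11.02, 11.04 and 11.11. The C10 rats were at 11.79, 11.41, 11.04 and 11.24, the CF rats at 11.49, 10.80, 11.19 and 11.80 and the I rats at 11.30, 11.11, 11.69 and 11.23. Every fiber diet overlapped REF, and CF held both the lowest and the highest rat of all 16. The differences from REF were 0.37 (SE 0.14, 95 % interval 0.08 to 0.67, adjusted p = 0.192) in C10, 0.37 (SE 0.15, 95 % interval 0.05 to 0.69, adjusted p = 0.778) in CF and 0.27 (SE 0.14, 95 % interval -0.02 to 0.57, adjusted p = 0.889) in I. The 3 diets were compared with the same 4 REF rats, and they differed among themselves by 0.10 or less. Their mean exceeded REF by 0.34 (SE 0.12, 95 % interval 0.09 to 0.59, adjusted p = 0.421). On arrays 1 to 4 alone the CF rats exceeded the REF rats by 0.01 and on arrays 5 to 8 by 0.42. C10 passed the threshold over REF in 1 setting, when arrays were not normalized to each other (0.46, adjusted p = 0.0469), where 1.28 % of all genes passed.

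Slc5a8 encodes SMCT1, the sodium-coupled transporter of butyrate on the luminal face of colonocytes, and it had the smallest p of the 8 genes. Its signals were 9.42, 9.64, 9.46 and 9.81 in I and 9.55, 9.66, 9.91 and 9.13 in C10. In REF they were 9.51, 9.39, 9.39 and 9.19, and in CF 9.43, 9.28, 9.002 and 9.02. The order of the means was I (9.58), C10 (9.56), REF (9.37) and CF (9.18), and neighbouring diets overlapped at each step. The inulin and cocoa fiber groups differed most: CF minus I was -0.43 (SE 0.11, 95 % interval -0.66 to -0.20, adjusted p = 1), p = 0.00133 before adjustment, with CF rat 1 (9.43) just above the lowest I rat (9.42) and the exact permutation p at 0.0571. C10 minus CF was 0.31 (SE 0.11, 95 % interval 0.08 to 0.54, adjusted p = 0.231), and this gap was larger without C10 rat 4, at 0.44. I minus REF was 0.29 (SE 0.11, 95 % interval 0.05 to 0.52, adjusted p = 0.831), C10 minus REF 0.16 (SE 0.11, 95 % interval -0.07 to 0.39, adjusted p = 0.478) and CF minus REF -0.15 (SE 0.12, 95 % interval -0.40 to 0.10, adjusted p = 0.896). The CF difference was -0.05 without CF rat 3. The limma F test of any diet difference left Slc5a8 at an adjusted p of 0.171. It was 1 of 8 genes below an unadjusted 0.05 there, as 12.2 % of all genes were. On arrays 5 to 8 alone, CF minus I was -0.57.

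**Figure D2:**
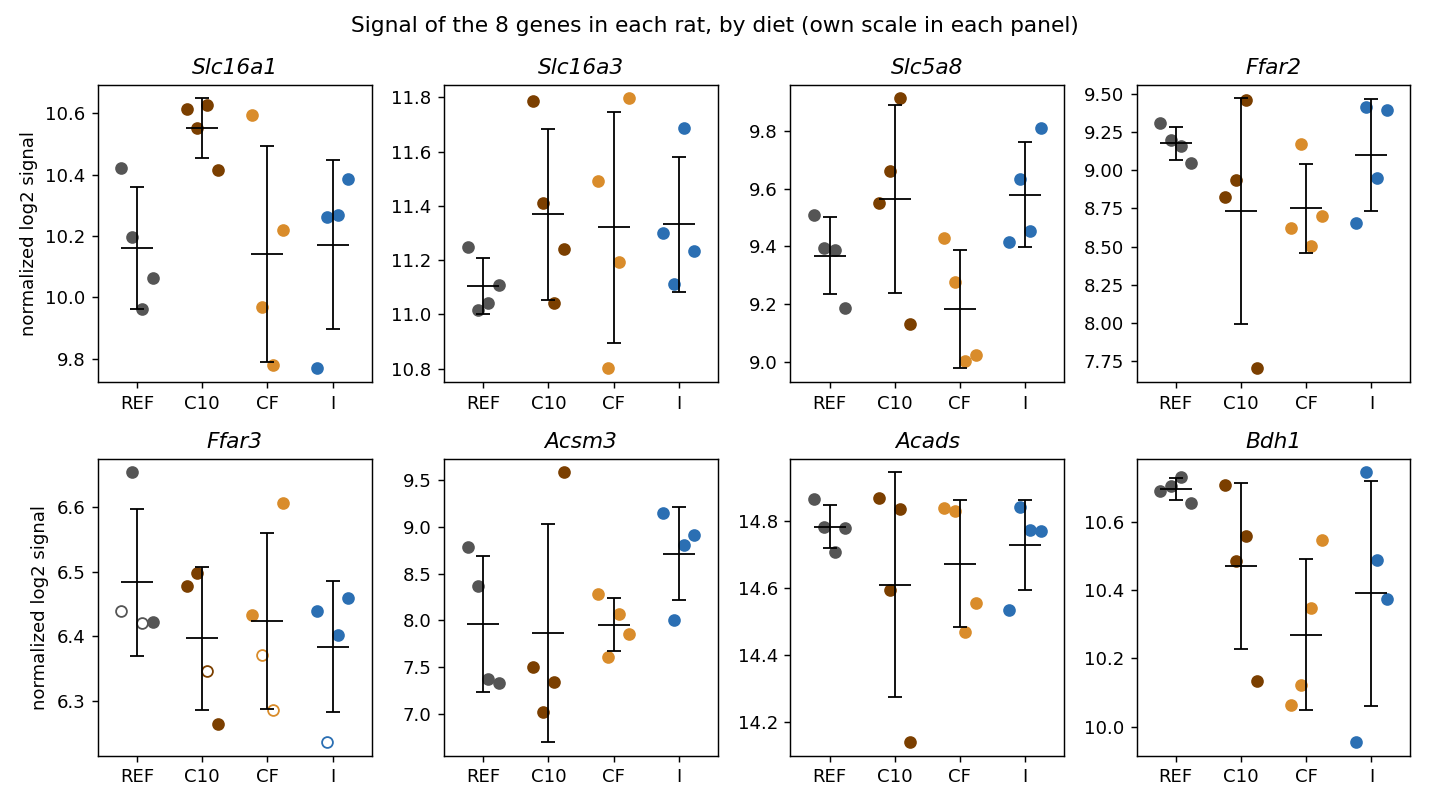
Normalized log2 signal (y axis, with its own scale in each panel) of the 8 genes in each of the 16 rats by diet (x axis). Each point is 1 rat, open where the probe was not well above background, and bars show the mean ± SD of 4 rats. The open points, all for Ffar3, are rats in Cy3. C10 rat 4 is the lowest point for Ffar2 and Acads and the highest for Acsm3.

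Of the receptors, Ffar2 (GPR43) answers chiefly to acetate and propionate and is found on enteroendocrine cells and leukocytes. Its promoter is given here together with that of Acads, the mitochondrial short-chain acyl-CoA dehydrogenase, because these 2 genes had the most similar pattern over rats of all 28 pairs among the 8. The sequences are the 250 bases before the RefSeq start site in build GRCr8, 5′ to 3′ on the gene's strand, at chr1:95202060-95202309 (minus strand) and chr12:47154083-47154332 (plus strand). Capitals mark matches, on either strand, to the letters CCAAT (read ATTGG on the other strand) or GGGCGG (read CCGCCC).
Ffar2 promoter: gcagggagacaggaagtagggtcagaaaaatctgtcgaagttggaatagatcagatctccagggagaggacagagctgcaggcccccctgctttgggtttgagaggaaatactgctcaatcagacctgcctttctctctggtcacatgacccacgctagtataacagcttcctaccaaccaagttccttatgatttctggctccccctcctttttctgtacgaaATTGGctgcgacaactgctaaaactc
Acads promoter: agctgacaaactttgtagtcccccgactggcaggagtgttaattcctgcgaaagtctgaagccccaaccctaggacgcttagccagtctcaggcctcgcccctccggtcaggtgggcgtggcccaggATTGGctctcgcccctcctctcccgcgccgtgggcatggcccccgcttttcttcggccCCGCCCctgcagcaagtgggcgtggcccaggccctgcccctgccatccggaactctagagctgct
Each holds 1 CCAAT on the strand opposite to the gene's, 26 bases before the start in Ffar2 and 123 bases in Acads (counted from the first capital), and Acads also holds 1 GGGCGG 65 bases before it. CCAAT was found in 34 % of all 33469 promoters of this length and GGGCGG in 30.5 %. Further letters were searched on both strands and are in neither window: TTTATG, which the Cdx homeodomain factors of the gut can bind (found in 11.4 % of all promoters), the TATA box letters TATAAA (12.9 %), the nuclear receptor motif AGGTCA (14.1 %) and the E-box CACGTG (5.59 %). Among the promoters of all 8 genes, 3 held CCAAT, 4 held GGGCGG, 1 held AGGTCA and 1 held CACGTG. These matches describe the letters only, and binding at them was not tested.

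Ffar2 was even across REF, at 9.31, 9.20, 9.16 and 9.05, and less so in the other diets. The C10 rats were at 8.82, 8.93, 9.46 and 7.70, which takes in both the highest and the lowest rat of all 16. The CF rats were at 8.63, 9.17, 8.50 and 8.70 and the I rats at 8.66, 9.41, 8.95 and 9.39. The differences from REF were -0.45 (SE 0.22, 95 % interval -0.92 to 0.02, adjusted p = 0.315) in C10, -0.34 (SE 0.24, 95 % interval -0.84 to 0.17, adjusted p = 0.884) in CF and 0.02 (SE 0.22, 95 % interval -0.45 to 0.49, adjusted p = 0.995) in I. Without C10 rat 4, which had the lowest Ffar2 and the highest posterior Hox mean, the C10 difference was -0.20, and without C10 rat 1 it was -0.63, the 2 ends of the range over single rats left out. The CF difference ranged from -0.18 without CF rat 3 to -0.52 without CF rat 2. With the posterior Hox mean as a covariate the C10 difference was -0.13, and with the smooth muscle mean -0.66. On arrays 1 to 4 alone C10 minus REF was -0.52. Between C10 and CF the sign turned from -0.11 to 0.27 without C10 rat 4.

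Ffar3 (GPR41), which prefers propionate and butyrate, was close to the detection limit. It lies next to Ffar2 on chromosome 1, with 1 RefSeq gene, not protein-coding, between them. It was well above background in 10 of 16 rats, 2 or 3 in each diet. These were all rats in Cy5 and, of those in Cy3, only C10 rat 2 and I rat 4. Its signals were 6.24 to 6.65, and the lowest signal of any probe well above background was 5.82 to 6.21 across rats. A Ffar3 signal above that value was not always well above background, as in REF rat 1 (6.44) and REF rat 3 (6.42). Diet means were 6.48 in REF, 6.40 in C10, 6.42 in CF and 6.38 in I, with SD of 0.10 to 0.14, and all pairs of diets overlapped. The differences from REF were -0.07 in C10, -0.00205 in CF and -0.06 in I. Values this near the floor moved with the processing. In C10 the difference was -0.16 with no normexp offset in the background correction, and in I it was -0.32 with the scanner software's processed signals. The part of the background correction in the I value was not tested.

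Acsm3, a mitochondrial medium-chain acyl-CoA synthetase that can activate butyrate by joining it to coenzyme A, varied more than any of the other 7 genes. Its range over the 16 rats was 2.56 and its SD within diets 0.74, compared with 0.12 to 0.44 for the others. The I rats were at 9.14, 8.001, 8.80 and 8.91, and the C10 rats at 7.50, 7.02, 7.35 and 9.58. The CF rats were at 8.28, 7.61, 8.07 and 7.86 and the REF rats at 8.79, 8.37, 7.38 and 7.33. In C10, 3 rats were among the 5 lowest of all, and rat 4 was the highest of the 16. The mean of I (8.71) was above those of REF (7.97), CF (7.96) and C10 (7.86), and overlapped each of them. C10 minus I was -1.10 (SE 0.48, 95 % interval -2.14 to -0.07, adjusted p = 0.373), CF minus I -0.98 (SE 0.44, 95 % interval -1.94 to -0.03, adjusted p = 1) and I minus REF 0.78 (SE 0.44, 95 % interval -0.18 to 1.73, adjusted p = 0.915). I minus REF ranged from 0.26 without REF rat 4 to 1.13 without REF rat 1, and was 0.44 without I rat 4. These model values use the pairing of rats on arrays, and the plain difference of the C10 and I means is smaller. C10 minus I ranged from -0.76 without C10 rat 1 to -1.74 (adjusted p = 0.0518) without C10 rat 4. Rank product, the test that the study names, put Acsm3 below its 0.05 limit in C10 against I and in CF against I (0.0318 and 0.0333), where 1.2 % and 0.302 % of all genes were. The same test with its 2-fold limit took in 0 of the 8 genes. C10 minus REF was -0.33 (SE 0.44, 95 % interval -1.28 to 0.63, adjusted p = 0.763), and its sign changed without C10 rat 1, to 0.09, and without REF rat 1, to 0.22. It was -0.83 without C10 rat 4 and -0.66 without REF rat 4. The 2 arrays that carried C10 beside REF, in opposite dyes, both had the C10 rat lower: C10 minus REF was -1.28 on array 1, and REF minus C10 was 1.35 on array 2. On arrays 1 to 4 together C10 minus REF was -0.71, with C10 rat 4 among the 4 C10 rats. Arrays 7 and 8, which carried I beside REF in opposite dyes, both had the I rat higher: I minus REF was 1.42 on array 7, and REF minus I was -1.58 on array 8. On arrays 5 to 8, the 4 I rats exceeded the 2 REF rats by 1.36, and the mean of the 2 REF rats there was 7.35, compared with 8.58 on arrays 1 to 4. CF minus REF was -0.63 on arrays 1 to 4 and 0.61 on arrays 5 to 8.

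Acads carries out the first step of butyryl-CoA oxidation and gave a bright and even signal. It was 14.87, 14.78, 14.71 and 14.78 in REF and 14.87, 14.59, 14.84 and 14.14 in C10. It was 14.84, 14.83, 14.47 and 14.55 in CF and 14.53, 14.84, 14.77 and 14.77 in I. C10 rat 4 was the lowest rat, as it was for Ffar2, and the other 15 rats lay between 14.47 and 14.87. C10 minus REF was -0.18 (SE 0.12, 95 % interval -0.45 to 0.08, adjusted p = 0.494), -0.05 without that rat and -0.33 without C10 rat 1. CF minus REF was -0.04 (SE 0.13, 95 % interval -0.33 to 0.25, adjusted p = 0.977) and I minus REF 0.02 (SE 0.12, 95 % interval -0.24 to 0.29, adjusted p = 0.994), and these intervals span folds of 0.796 to 1.19 and of 0.846 to 1.22. With 1 rat left out at a time, CF minus REF ran from -0.14 (without CF rat 2) to 0.03. I minus REF ran from -0.02 to 0.06, so that the sign of each could change.

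Bdh1, the mitochondrial enzyme that turns acetoacetate into 3-hydroxybutyrate and back, was lower on average in each fiber diet than in REF, and none of these differences passed the threshold. The 4 REF rats were almost identical, at 10.69, 10.71, 10.73 and 10.66. The CF rats were at 10.06, 10.12, 10.35 and 10.55, all of them below all REF rats (exact permutation p = 0.0286 two-sided), and 0.774 % of all genes were lower without overlap in this comparison. The I rats were at 9.95, 10.75, 10.49 and 10.38 and the C10 rats at 10.71, 10.49, 10.56 and 10.13, and in each of these diets at least 1 rat was level with REF. The differences from REF were -0.36 (SE 0.14, 95 % interval -0.66 to -0.06, adjusted p = 0.766) in CF, -0.31 (SE 0.13, 95 % interval -0.59 to -0.03, adjusted p = 0.867) in I and -0.15 (SE 0.13, 95 % interval -0.43 to 0.12, adjusted p = 0.596) in C10. The C10 difference was -0.28 without C10 rat 1 and -0.08 without C10 rat 4, and the I difference -0.20 without I rat 1. The mean of the 3 diets minus REF was -0.27 (SE 0.11, 95 % interval -0.51 to -0.04, adjusted p = 0.472). CF minus REF was -0.61 on arrays 1 to 4 and -0.25 on arrays 5 to 8, with 2 rats of each diet in either set. No array carried both diets. The REF SD of 0.03 was the smallest of the 4 diets (0.22 to 0.33 in the others), and the model pools the spread over all diets.

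The 8 genes did not move as a block from rat to rat. After removal of the dye means, the 28 pairs had Pearson correlations from -0.43 to 0.88 over 16 rats (median 0.16), and 5 reached 0.5. Rats that shared an array or a diet are not independent here, and the values are a description. Ffar2 and Acads were the closest pair (r = 0.88, Spearman's rho = 0.62, and r = 0.89 with diet means removed too). The relation rested in part on C10 rat 4, since r was 0.75 without it and 0.56 without the 2 rats farthest from the median of Ffar2. Slc16a1 and Slc5a8, the uptake pair, had r = 0.64 (rho = 0.65), which was 0.70 without the 2 rats farthest from the median of Slc16a1.

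These genes were also set against the posterior Hox mean, a comparison added after the values were seen. In a model with diet and dye, the slope per unit of that mean was -0.26 (SE 0.09, adjusted p = 0.234) for Ffar2 and -0.15 (SE 0.05, adjusted p = 0.2) for Acads. It had the opposite sign for Acsm3, at 0.62 (SE 0.16, adjusted p = 0.0782). No slope of the 8 genes passed the threshold, which 1.73 % of all genes did. Without C10 rat 4 and REF rat 4, the ends of the Hox range, the slopes of Ffar2 and Acads were -0.25 (SE 0.10, adjusted p = 0.461) and -0.17 (SE 0.07, adjusted p = 0.419), and that of Acsm3 was 0.15 (SE 0.21, adjusted p = 0.894). The share of genes past the threshold was then 0.387 %. The Hox mean itself was higher in C10 than in REF on average, and the part of diet and of position along the colon in it cannot be told apart. With the Hox mean in the diet model, C10 minus REF was -0.13 for Ffar2, 0.00437 for Acads and -1.09 for Acsm3. With the smooth muscle mean in its place, which was lowest in C10 rat 1, the same differences were -0.66, -0.33 and 0.28, so that the 2 covariates moved each of them in opposite directions. None of the 8 genes passed for the slope on the epithelial, B cell or smooth muscle mean, where 2.19 %, 10.7 % and 1.93 % of all genes did (smooth muscle 0 % without C10 rat 1).

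**Figure D3:**
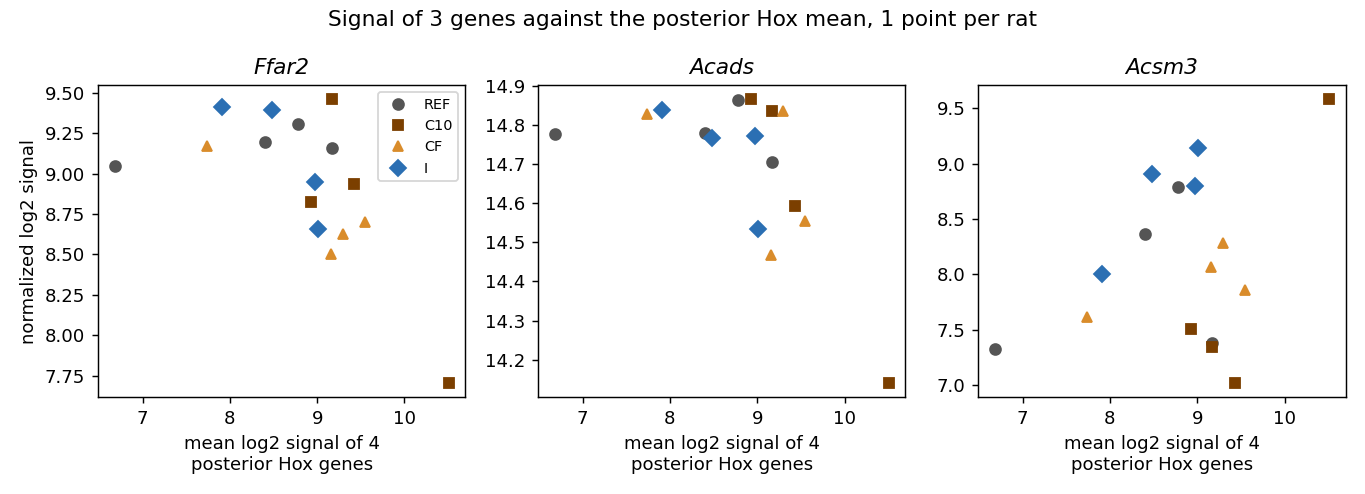
Normalized log2 signal (y axis) of Ffar2, Acads and Acsm3 against the mean log2 signal of 4 posterior Hox genes (x axis). Each point is 1 of 16 rats, with shape and colour for the diet; C10 rat 4, at a Hox mean of 10.51, is the lowest point for Ffar2 and Acads and the highest for Acsm3.

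For each gene, the 3 most similar profiles over the 16 rats were sought among all genes with a symbol, by Pearson r after removal of the dye means. Slc16a1 was closest to Pals1 (r = 0.87), Liph (0.87) and Gata6 (0.87), and Slc16a3 to Rnf182 (r = 0.86), Map3k2 (0.81) and Mark2 (0.79). For Slc5a8, 2 of the 3 are given: Uap1 (r = 0.83) and Esrp1 (r = 0.78). Ffar2 was closest to Far1 (r = 0.93), Tbxas1 (0.92) and Car12 (0.91), and Acads to Far1 (r = 0.93), Prkar2b (0.90) and Cdx2 (0.88), the last the caudal-type homeobox factor of the intestinal epithelium. Far1, a fatty acyl-CoA reductase, was thus the first match of both genes of the closest pair. Ffar3, near its detection limit, was closest to Dlc1 (r = 0.82), Ccnd3 (0.79) and Ywhag (0.76), and Bdh1 to Sult1c2a (r = 0.79), Krt87 (0.78) and Mrgpre (0.77). Acsm3 was closest to Acsm4 (r = 0.79), Tsks (0.74) and Sat1 (0.74). Acsm4, a synthetase of the same family, lies on the same chromosome with 3 RefSeq genes between, and whether their probes read each other's transcripts was not tested.

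A wider list of 56 genes of the same pathways was examined beside the 8, of which 53 had a probe and 47 were tested. In the comparison of C10 with REF, 1 of the 47 passed the threshold, and in C10 against I 1 did; in the other 5 comparisons 0 did. Over all genes the shares were 0.945 % and 0.548 %, so 1 in 47 is near the background and is not a result about the list. The 3 genes listed under ketone bodies (Bdh2, Oxct1 and Hmgcs1, whose product makes HMG-CoA for cholesterol), 16 oxidation genes, 8 transport genes, 7 sensing genes, 5 activation genes, 3 propionate genes and 5 regulators are drawn in the plot of pathway differences. Their median difference from REF was -0.05 in C10, 0.01 in CF and 0.04 in I.

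Of these, 5 genes named by rule did not pass the threshold. Oxct1, which lets cells burn ketone bodies, differed from REF by -0.06 in C10, 0.04 in CF and -0.11 in I, and Acat1, the mitochondrial acetoacetyl-CoA thiolase, by -0.09, -0.07 and -0.03. Hcar2, the receptor for niacin and 3-hydroxybutyrate that also answers to butyrate, differed by 0.01, -0.07 and 0.01. For Pyy, a hormone of the enteroendocrine cells that carry Ffar2, the values were 0.12, -0.08 and 0.05. Bsg, the chaperone that brings MCT1 and MCT4 to the membrane, was at 0.09, 0.26 and 0.35. The adjusted p of these 5 genes against REF was 0.643 or more.

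The 2 genes of the wider list that passed were Hmgcs1 and Olr59. Hmgcs1 is the cytosolic HMG-CoA synthase of cholesterol synthesis. It was at 14.30, 14.50, 13.31 and 13.96 in REF and 13.05, 12.62, 13.41 and 13.40 in C10, with REF rat 3 inside the C10 range. It fell in C10, and C10 minus REF was -1.12 (SE 0.24, 95 % interval -1.63 to -0.61, adjusted p = 0.0458). CF minus REF was -0.88 (adjusted p = 0.685). Rank product put Hmgcs1 below its limit in both comparisons (0.0223 and 0.0301), where 1.37 % and 0.648 % of all genes were. The call was lost when any 1 of 13 rats was left out, and kept without REF rat 3, C10 rat 3 or I rat 1. Olr59 is the rat counterpart of mouse Olfr78, an olfactory-type receptor for acetate and propionate on enteroendocrine and vascular cells. It was at 8.44, 9.06, 9.10 and 8.82 in C10 and 9.24, 10.31, 9.12 and 10.05 in I, and at 9.36, 9.21, 8.87 and 9.26 in REF and 9.64, 9.94, 9.26 and 9.25 in CF. All C10 rats were below all I rats, as 2.44 % of all genes were, and below all CF rats, as 1.94 % were. C10 minus CF was -0.71 (adjusted p = 0.0823). C10 minus I was -0.98 (SE 0.18, 95 % interval -1.37 to -0.59, adjusted p = 0.0319), I minus REF 0.54 (adjusted p = 0.791) and C10 minus REF -0.44 (adjusted p = 0.198). Its call was lost when any 1 of 12 rats was left out, and kept without REF rat 3, REF rat 4, CF rat 3 or I rat 1. Olr59 also ran with the B cell mean within diets, with a slope of -0.12 (SE 0.03, adjusted p = 0.0323), and 10.7 % of all genes passed for this slope. The B cell mean separates the odd from the even arrays, and Olr59 on odd minus even arrays was -0.36 (adjusted p = 0.181).

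**Figure D4:**
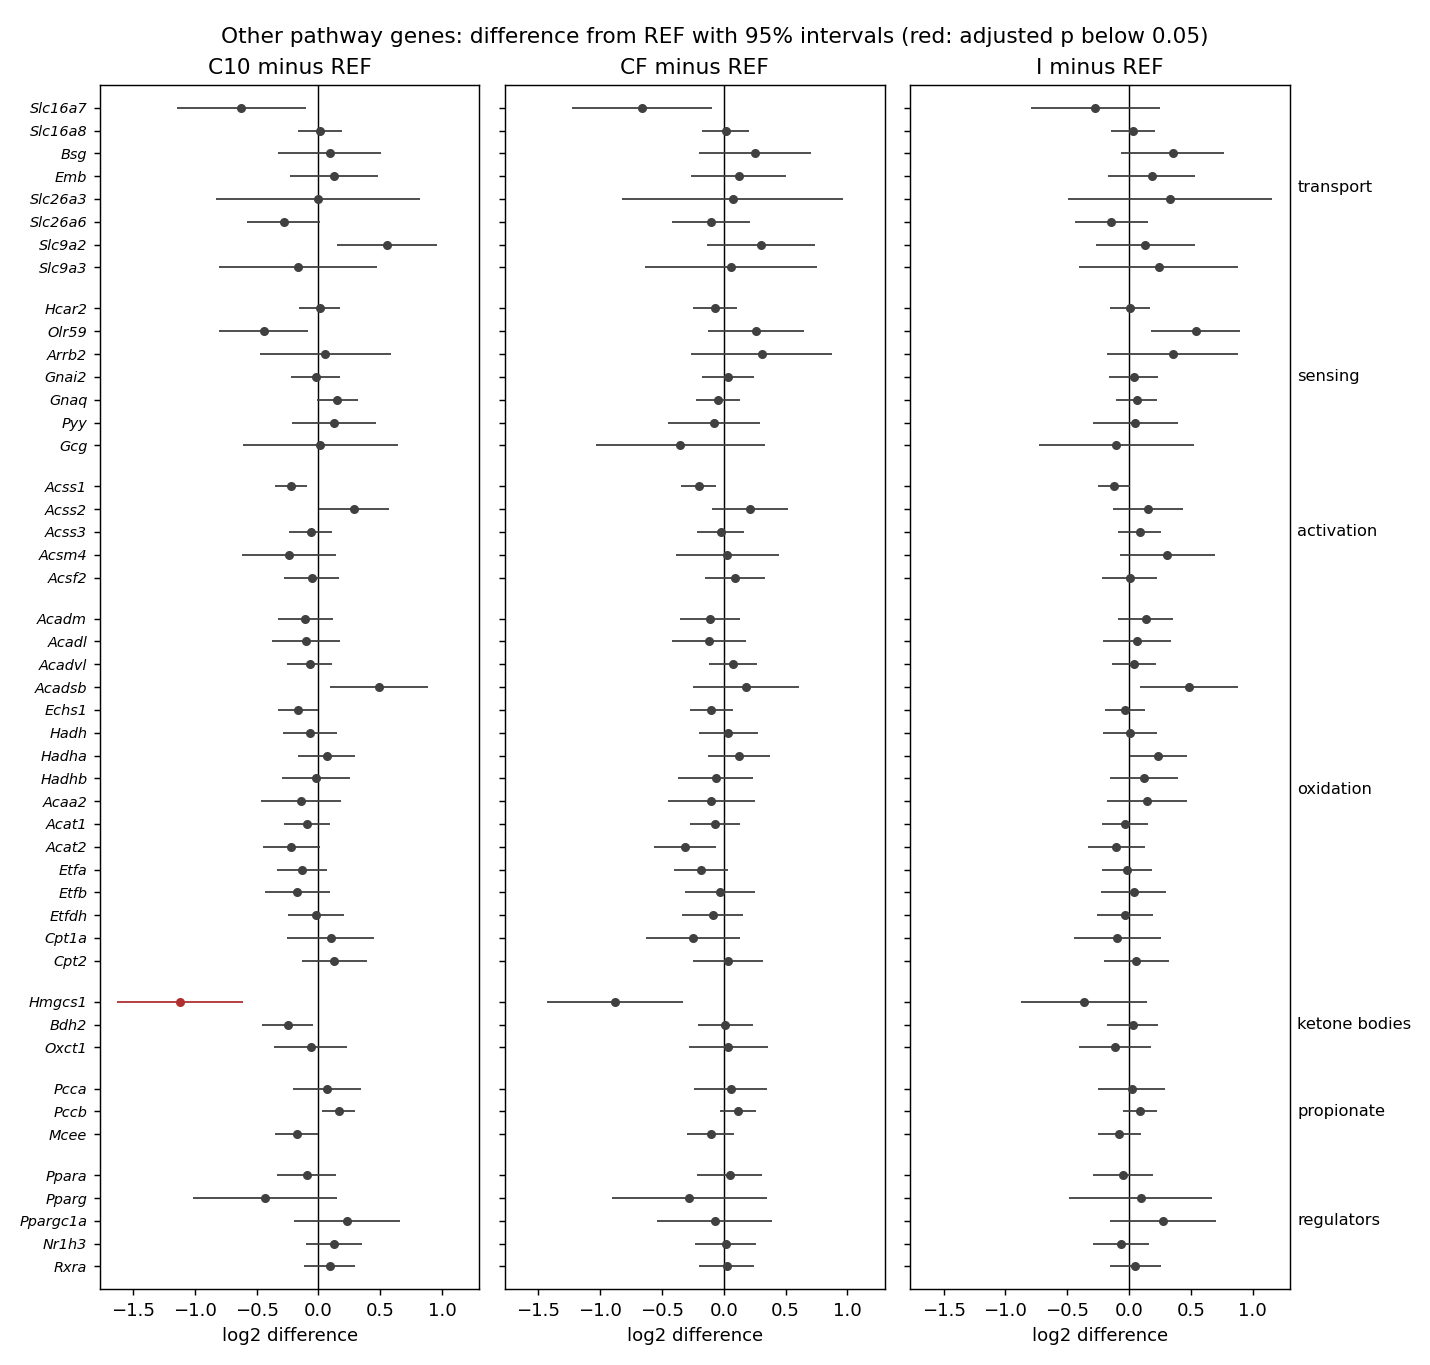
Log2 differences of C10, CF and I from REF (x axis, 1 panel per diet) for 47 other pathway genes (y axis), grouped by role, which is named at the right. Points are estimates over 16 rats and bars 95 % intervals; red marks an adjusted p below 0.05, which Hmgcs1 in C10 alone has.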

How the data were processed

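The deposited files hold, for each of 8 two-colour arrays, the spot and background intensity in Cy5 and Cy3 that the authors' scanner software (Agilent Feature Extraction 10.7.3.1, per the labels) wrote, with no normalization between arrays; labels were used to assign each dye to a rat and a diet. Each array had 62976 spots, of which 58717 were not controls. Across rats, 68.6 to 83.9 % of spots were well above background and 0 were saturated. A table of the whole series, with 8 columns, was not used, since its columns could not be mapped.

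From these intensities, background was corrected (normexp, offset 50), dyes were balanced by spatial loess (span 0.4) and intensity loess (span 0.3), arrays were aligned by Aquantile, and log2 signals were averaged over spots. Probes well above background in at least 4 of 16 rats were kept, with the brightest for each gene, which gave 19899 genes, 11921 of them with a symbol from RefSeq. limma 3.58.1 (with R 4.3.3, statmod 1.5.0 and the data.table package, version 1.17.8) fitted diet and dye with array as a random block (correlation 0.421), and Benjamini-Hochberg adjustment covered all genes, with a threshold of 0.05. These model differences combine comparisons within and between arrays and are not plain differences of means. Intervals are 95 %. The model fit and rank product were tested on simulated data.

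The genes named were the 8 genes, 5 others of the pathway by name, those of the pathway list past the threshold, and the 3 most similar genes of each of the 8. Some genes are not reported here. Members and lists were chosen with earlier results of these data known. Alternatives covered background, normalization, filter, probe choice, dye, array and cell make-up terms, rank product (100 permutations) and leaving out each rat. Promoters are from RefSeq, build GRCr8.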

Additional observations from a re-analysis of the deposited data

Results flagged for a closer look

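In 60 groups of 4 rats, 1 rat stood far from the other 3 in 1 group by Dixon's test, which flags about 1 group in 20 by chance. Ffar3 in REF rat 2 was 6.65, compared with 6.42 to 6.44 in the other REF rats. Of the 4 REF rats, 2 were well above background, both of them in Cy5.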

How the results depend on the processing

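Of 1785 differences of the 8 genes under alternative settings, 103 changed sign, none of them (0 of 416) among differences with an unadjusted p below 0.05. The latter were picked by their p in the main setting, so sign changes among them were unlikely beforehand. Averaging the probes of a gene or changing the filter on dim probes could not alter the signals of the 8 genes, each with 1 probe. The count of these genes past the threshold was 0 in each comparison when any 1 rat was left out. It became 1 in C10 against REF without normalization between arrays (Slc16a3), where 1.28 % of all genes passed, compared with 0.945 % in the setting reported, and 1 in C10 against I and 1 in CF against I by rank product without a fold limit (Acsm3); in simulated data that test also called genes that had not been changed. The number of other pathway genes past the threshold in any comparison, 2, moved with the settings. It was 1 with no normexp offset, with no filter on dim probes, with an odd and even arrays term, or with the epithelium or the smooth muscle mean as a covariate. It was 0 with the scanner software's processed signals, with no dye term, with no array block, with log-ratios within arrays, or with the posterior Hox covariate, where the share of all genes past the threshold in C10 against REF was 0.749 %, 0.342 %, 0.211 %, 0 % and 0.201 %. Leaving out 1 rat at a time gave 0 to 3 (lowest 0 without REF rat 1, among others, highest 3 without REF rat 3), where 0.291 % and 3.4 % of all genes passed in C10 against REF, and rank product gave 2 (Hmgcs1 and Olr59, the first in 2 comparisons). The cause was not tested. Hmgcs1 in C10 against REF was past the threshold in 9 of 32 settings, with differences of -1.42 to -0.89 and adjusted p of 0.00956 to 0.239. Olr59 in C10 against I was past it in 15 of 32, with -1.20 to -0.83 and 0.0257 to 0.213. The terms for odd and even arrays, the rank product with a 2-fold limit and the slopes on marker means were chosen after seeing the data. The rats were paired by array, through the array block and, as an alternative, log-ratios within arrays; the labels give no replicate numbers that could pair them otherwise. C10 and I share no array, and CF and REF share none either. Each of these contrasts combines differences between arrays with those taken through rats of the other diets. Precision is limited by 4 rats per diet and, for Ffar3, by a signal near background.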
